A study of Mus musculus with 16 samples.

Results

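Lin28a, Lin28b, Hmga1, Hmga2, Igf2bp1, Igf2bp2 and Igf2bp3 were examined in cultured mouse germ cells given different doses of 2 fibroblast growth factors. These are 7 of the 54432 genes in the results table, selected by their symbols as the Lin28 genes and the let-7-regulated Hmga and Igf2bp genes, with earlier results of the same table known. All 7 were tested, since each averaged 10 or more normalized counts. The cells were THY-1+ germ cells from the testes of C57 LacZ mouse pups. They were expanded between passages 9 and 12 over a feeder layer of STO cells (mouse fibroblasts). Every group received serum-free medium with 20 ng/mL GDNF, the factor that maintains spermatogonial stem cells (SSCs), and 150 ng/mL of its soluble co-receptor GFRα1. The 4 groups were a control without FGF, FGF9 at 1 ng/mL (low dose), FGF9 at 20 ng/mL (high dose) and FGF2 at 1 ng/mL. Treatment lasted 7 days, and the cultures had been kept in FGF2 before the treatments. Germ cells were blown off the feeder before RNA was taken. According to the paper this harvest gives mostly germ cells, and some fibroblast RNA can remain in a library. The labels list 4 cultures per treatment (16 samples), whereas the title of the table points to 12 libraries, and 3 libraries per group were assumed.

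let-7 is a family of microRNAs that base-pair with the 3′ untranslated regions (UTRs) of mRNAs through the seed, the bases near the 5′ end of the microRNA, and lower their stability and translation. LIN28A and LIN28B bind let-7 precursors and block their maturation, while let-7 in turn represses the Lin28 mRNAs, which forms a double-negative loop. Lin28a is a known marker of undifferentiated spermatogonia. HMGA1 and HMGA2 are small chromatin proteins that bend AT-rich DNA, and Hmga2 is a classical let-7 target. IGF2BP1, IGF2BP2 and IGF2BP3 are RNA-binding proteins that stabilise client mRNAs, some of them as readers of N6-methyladenosine (m6A).

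The let-7 seed is the feature that ties these genes together, so the microRNAs and their matches are shown first. Of 11 mature let-7 family sequences in the RefSeq table, 10 carried the same seed at bases 2 to 8, printed in capitals, and let-7j ended it with another base.
let-7a-5p: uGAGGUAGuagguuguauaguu
let-7d-5p: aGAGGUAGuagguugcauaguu
let-7g-5p: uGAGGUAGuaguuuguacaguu
miR-98-5p: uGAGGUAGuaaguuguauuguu
let-7j: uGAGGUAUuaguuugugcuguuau

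The match searched in the mRNAs was CTACCTC, the reverse complement of the shared seed, on the transcribed strand only. A single transcript was taken per gene from GENCODE M21 (GRCm38), and 14220 tested genes had a 3′ UTR there. Of these, 9.61% held at least 1 match. All 7 of the genes studied did, with 17 matches in all, which describes how such genes are chosen and is not a test. Hmga2 had 4 matches in a 3′ UTR of 2977 nucleotides, the densest of the 7 at 1.34 per kb. Lin28b had 4 in 4445 nucleotides and Igf2bp1 had 4 in 6337 nucleotides, and 0.0703% of the genes had as many. Lin28a had 2 in 2775 nucleotides, which 1.18% of the genes reached. Hmga1, Igf2bp2 and Igf2bp3 had 1 each. Since long UTRs hold more matches by their length alone, Hmga2 was also set beside the 4950 genes whose 3′ UTR was within 2-fold of its own, of which 16.6% had a match and 0.141% had 4 or more. A letter match is not evidence that let-7 binds there, and the polyA-selected libraries do not measure mature microRNAs.

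The matches of the 3 genes that passed a test below are printed with their flanks, 5′ to 3′ on the mRNA strand, with the seed match in capitals. All lie in the 3′ UTR, and an adenine after the match, a feature of stronger microRNA sites in general, was found at the first Hmga2 match, at both Lin28a matches and at the Igf2bp2 match.
Hmga2 match 1, chr10:120364224-120364245, minus strand: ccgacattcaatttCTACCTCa
Hmga2 match 2, chr10:120362987-120363008, minus strand: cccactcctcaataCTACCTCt
Hmga2 match 3, chr10:120362549-120362570, minus strand: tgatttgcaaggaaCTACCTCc
Hmga2 match 4, chr10:120361691-120361712, minus strand: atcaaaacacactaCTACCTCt
Lin28a match 1, chr4:134005189-134005210, minus strand: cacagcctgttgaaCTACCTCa
Lin28a match 2, chr4:134004551-134004572, minus strand: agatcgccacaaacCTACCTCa
Igf2bp2 match 1, chr16:22059473-22059494, minus strand: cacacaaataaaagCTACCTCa

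In Hmga2 the first match began 21 nucleotides after the stop codon and the last at nucleotide 2554. In Lin28b, likewise, the first began at nucleotide 36 and the next at nucleotide 2410. Igf2bp1 differed, with its first match at nucleotide 1715.

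**Figure D1:**
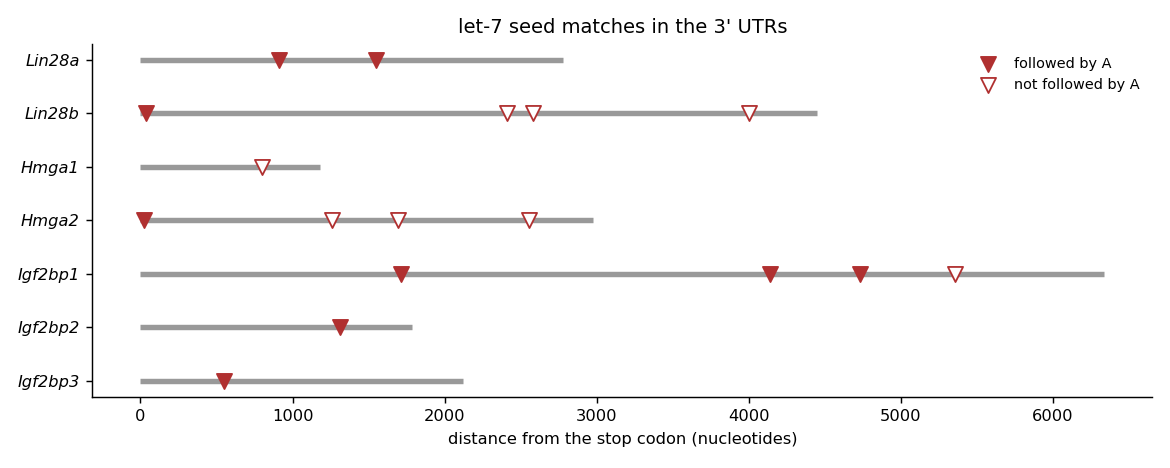
Positions of let-7 seed matches (triangles) along the 3′ UTR (grey line) of each gene, in nucleotides from the stop codon. Filled triangles are matches followed by an adenine. Hmga2, Lin28b and Igf2bp1 hold 4 matches each, and the first ones of Hmga2 and Lin28b start within the first 36 nucleotides.

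The table gives, for each gene, the mean normalized count over all libraries and a comparison of each treatment with control, and it holds 0 columns of values per library. Group means were therefore derived from that mean and the 3 fold changes, and their standard errors (SE) are those implied by the errors of the fold changes at 3 libraries per group. A gene is called changed where its adjusted p, from the authors' DESeq2 p-values adjusted over the 17755 genes tested, was under 0.05. As the genes were chosen with results known, the counts and p-values below describe them. Labelled as germ cells, the cultures had high levels of Dazl and Ddx4, defining markers of germ cells, and all 15 germ cell markers were tested. Their summed level in the treated groups was 99.7% to 103% of control. Abundant markers such as Dazl (48295 in control) weigh most in that sum. Against control, Id4 was called higher and Tex101 lower at high-dose FGF9, where 2.75% of all genes were called. None was called with low-dose FGF9 or FGF2, where 0.0789% and 0.146% of all genes were called. At an unadjusted p under 0.05 there were 4 of 15 with high-dose FGF9, 6 with FGF2 and 0 with low-dose FGF9. The share of all genes at that unadjusted threshold was not computed. Of 10 markers of Sertoli and other testis somatic cells 5 were tested and none was called (0 at an unadjusted p under 0.05 in any comparison with control). Of 24 fibroblast markers, 21 were tested, with Lum, Tagln and Acta2 below 10 normalized counts. Their summed derived means were 20186 in control, 21854 with low-dose FGF9, 26462 with high-dose FGF9 and 21280 with FGF2. In bulk RNA, fewer cells of a type and less RNA per cell cannot be told apart.

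Per kilobase of the chosen transcript, the control levels ran from Hmga1 (3587) through Igf2bp1 (1683), Lin28a (715), Igf2bp3 (532), Lin28b (475) and Igf2bp2 (79.3) down to Hmga2 (14.4 normalized counts per kb). Hmga1 was thus the most abundant of the 7 and Hmga2 the least in the control. Igf2bp3 and Lin28b were the closest neighbours, with a ratio of 1.12, a gap larger than their combined coefficient of variation (CV) between libraries (7.28%). With high-dose FGF9 the order of the genes did not change, but Hmga2 (85.1 per kb) came within a ratio of 1.08 of Igf2bp2 (91.8), well inside their combined CV of 41.5%. The order of near neighbours also depends on 1 transcript length per gene.

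**Figure D2:**
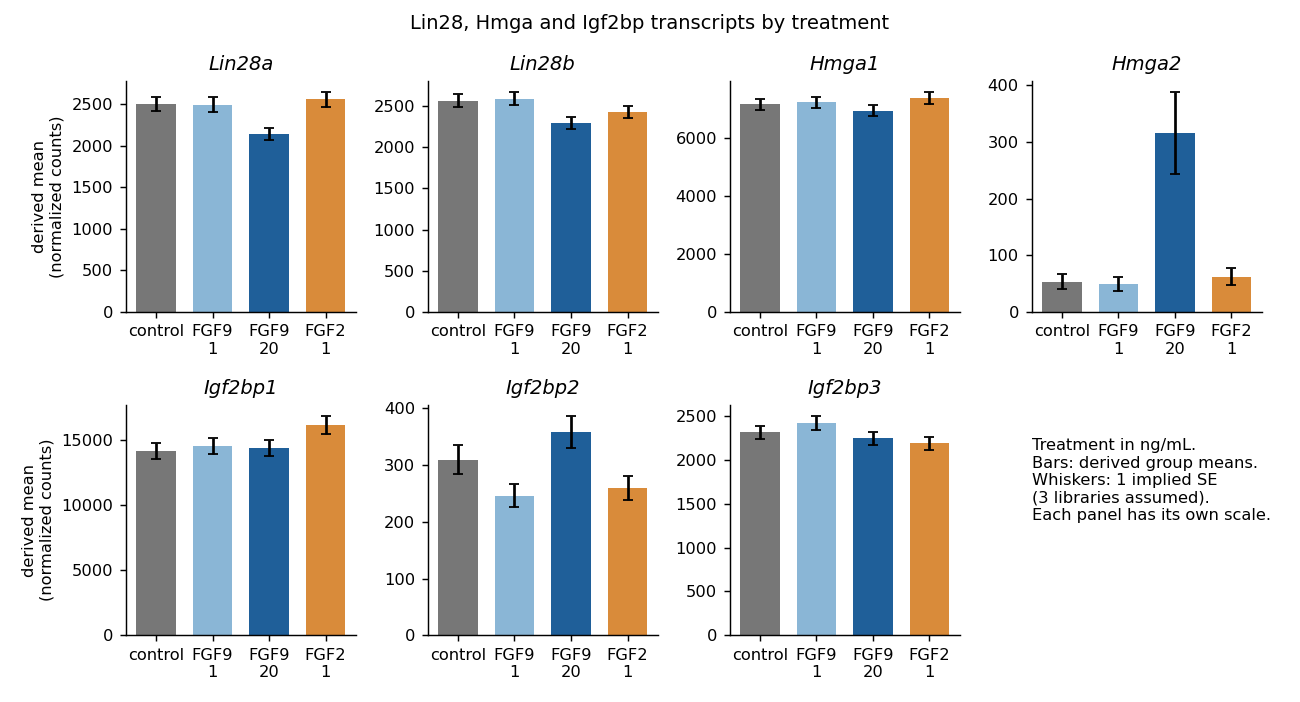
Derived group means in normalized counts (bars) with 1 implied SE (whiskers, 3 libraries assumed) for each gene and treatment, each panel on its own scale from 0. Hmga2 rose from 53.3 in control to 316 with high-dose FGF9, while Hmga1 and Igf2bp3 stayed within 1.06-fold and 1.11-fold over the 4 treatments.

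Of the 7 genes, Hmga2 rose with the high dose of FGF9, Lin28a was lower there than with FGF2, and Igf2bp2 was higher there than with the low dose. With high-dose FGF9 against control, 1 of 7 was called (Hmga2, higher), where 2.75% of all genes tested were called. With low-dose FGF9 none was called by the authors' DESeq2 test (1 at an unadjusted p under 0.05), where 0.0789% of all genes were called. With FGF2 none was called (1 at an unadjusted p under 0.05), where 0.146% of all genes were called. In direct contrasts, rebuilt from the comparisons with control, high-dose against low-dose FGF9 called 2 of 7 (Hmga2 and Igf2bp2, both higher), with 2.57% of 17726 genes called. The contrast of high-dose FGF9 with FGF2 called 2 of 7 (Hmga2 higher and Lin28a lower), with 1.17% of all genes called. For low-dose FGF9 against FGF2 none was called by the rebuilt test (1 at an unadjusted p under 0.05), with 0.406% of all genes called. At an unadjusted p under 0.05 (DESeq2), 3 of 7 passed with high-dose FGF9 against control. By the rebuilt test, 4 of 7 did so for high-dose against low-dose FGF9 and 3 of 7 for high-dose FGF9 against FGF2. The share of all genes at an unadjusted p under 0.05 was not computed, here or for the lists below. The median log2 fold change of the 7 genes was -0.04 with high-dose FGF9, 0.01 with low-dose FGF9 and 0.03 with FGF2, and over all genes tested the medians lay between -0.0037 and 0.00043. Apart from Hmga2, the genes moved by less than 1.5-fold in every comparison.

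**Figure D3:**
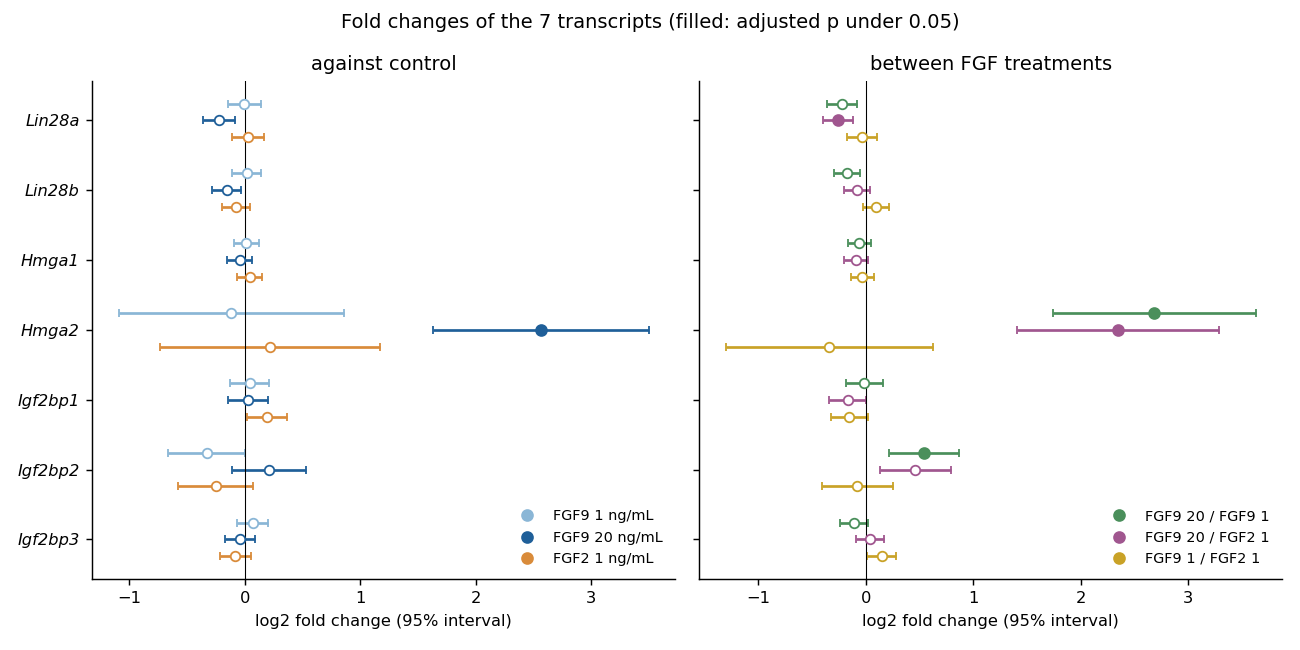
Log2 fold changes with 95% intervals for the 7 genes against control (left) and between FGF treatments (right), filled where the adjusted p was under 0.05. Filled points are Hmga2 with high-dose FGF9 in 3 comparisons, Lin28a against FGF2 and Igf2bp2 against low-dose FGF9.

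Hmga2 was the 1 gene of the 7 called against control, and it was called with the high dose of FGF9. In GRCm38, Hmga2 (ENSMUSG00000056758) spans 120361275 to 120476469 of chromosome 10. The derived mean was 53.3 ± 12.8 (implied SE) in control and 49.1 ± 11.9 with low-dose FGF9. It was 316 ± 72.6 with high-dose FGF9 and 62.1 ± 14.8 with FGF2. The high dose stood apart, and the other 3 groups lay between 49.1 and 62.1. Compared with control, high-dose FGF9 raised Hmga2 by 5.92-fold (95% interval 3.10 to 11.3, adjusted p = 2.04e-05). With low-dose FGF9 the fold change was 0.921 (interval 0.469 to 1.81) and with FGF2 it was 1.17 (interval 0.601 to 2.26), and neither was called. These intervals allow up to 1.81-fold and 2.26-fold higher levels, so smaller rises at 1 ng/mL were not detectable. Among the 13714 genes averaging 50 or more, Hmga2 ranked 19th by log2 fold change with high-dose FGF9.

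The spread of Hmga2 between libraries was wide. Its implied CV was 39.4%, against a median of 18.4% for the 3051 genes with a mean within 2-fold of its own, and its dispersion exceeded that of 92.6% of them. The other 6 genes had CVs between 4.56% and 12.9%. Whether single libraries carry the rise of Hmga2 was not tested, since values per library were not analysed here.

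The rise of Hmga2 held against both low-dose treatments. In the direct contrasts, Hmga2 was 6.43-fold higher with high-dose FGF9 than with low-dose FGF9 (95% interval 3.34 to 12.4, adjusted p = 9.84e-06). It was 5.08-fold higher than with FGF2 (interval 2.65 to 9.74, adjusted p = 0.000325). Between low-dose FGF9 and FGF2, the matched doses, the ratio was 0.791 (interval 0.406 to 1.54, adjusted p = 0.992). The comparisons share groups and are not independent of each other, and fibroblast markers moved in both contrasts with the high dose.

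Fibroblast markers moved in the same comparison as Hmga2. With high-dose FGF9, 5 of the 21 tested were called higher (Bgn, Dcn, S100a4, Sparc and Vim) and none lower, where 2.75% of all genes were called. The median log2 fold change of the 21 was 1.13 against -0.00083 over all genes tested. Of the 21, 18 had positive log2 fold changes, and Postn (-0.47), Twist1 (-0.14) and Fbn1 (-0.04) had negative ones. S100a4, a calcium-binding protein of fibroblasts, was 12.4-fold higher (interval 6.89 to 22.3), and Vim, an intermediate filament of mesenchymal cells, was 3.36-fold higher (interval 2.29 to 4.92). The 6 most abundant markers differed among themselves, and Vim is one of them. Fn1, encoding fibronectin, stood at 1.06 times control (interval 0.951 to 1.18), Col5a1, a minor fibrillar collagen, at 1.08 (interval 0.912 to 1.28) and Col1a1, the main fibrillar collagen, at 1.17 (interval 0.994 to 1.38). Col3a1, another fibrillar collagen, was at 4.06 times control with a wide interval (1.53 to 10.7, unadjusted p = 0.0049, adjusted p = 0.114), and Pdgfra, a growth factor receptor of mesenchymal cells, was at 1.31 (interval 1.06 to 1.63, adjusted p = 0.208). The summed level of the list was 131% of control, and Fn1, Col5a1 and Col1a1 made up 80.2% of the control sum. Over the other 18 markers, a split made after the values were seen, the sum was 4003 in control and 9015 with high-dose FGF9, a ratio of 2.25. It was 5425 with low-dose FGF9 and 4257 with FGF2. Vim (645 in control, 2168 at the high dose) and Col3a1 (314 and 1275, not called) were the largest of these 18 at the high dose. The markers also moved in both direct contrasts with the high dose. Against low-dose FGF9, 2 of 21 were called higher (S100a4 and Vim), where 2.57% of all genes were called, with a median log2 fold change of 0.73. Against FGF2, 5 of 21 were called higher (the same 5 as against control), where 1.17% of all genes were called, with a median of 0.84. The part of the fibroblast markers in the Hmga2 results was not tested.

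By the distance between their 3 log2 fold changes, the genes nearest to Hmga2 among 12034 candidates were Cpe, Chac1, Ddr2, Oaf and Timp2. Cpe, a carboxypeptidase that processes prohormones, had derived means of 82.3 in control and 527 with high-dose FGF9, and of 75.5 and 78.8 in the low-dose groups of FGF9 and FGF2. Chac1, a stress-induced enzyme that degrades glutathione, had means of 65.0 in control, 332 with high-dose FGF9 and 105 with FGF2. Ddr2, a collagen receptor of mesenchymal cells, had means of 92.0 in control and 454 with high-dose FGF9. Timp2, an inhibitor of matrix metalloproteinases, had means of 233 and 1056. The likeness rests on 3 values per gene that share the same control libraries.

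**Figure D4:**
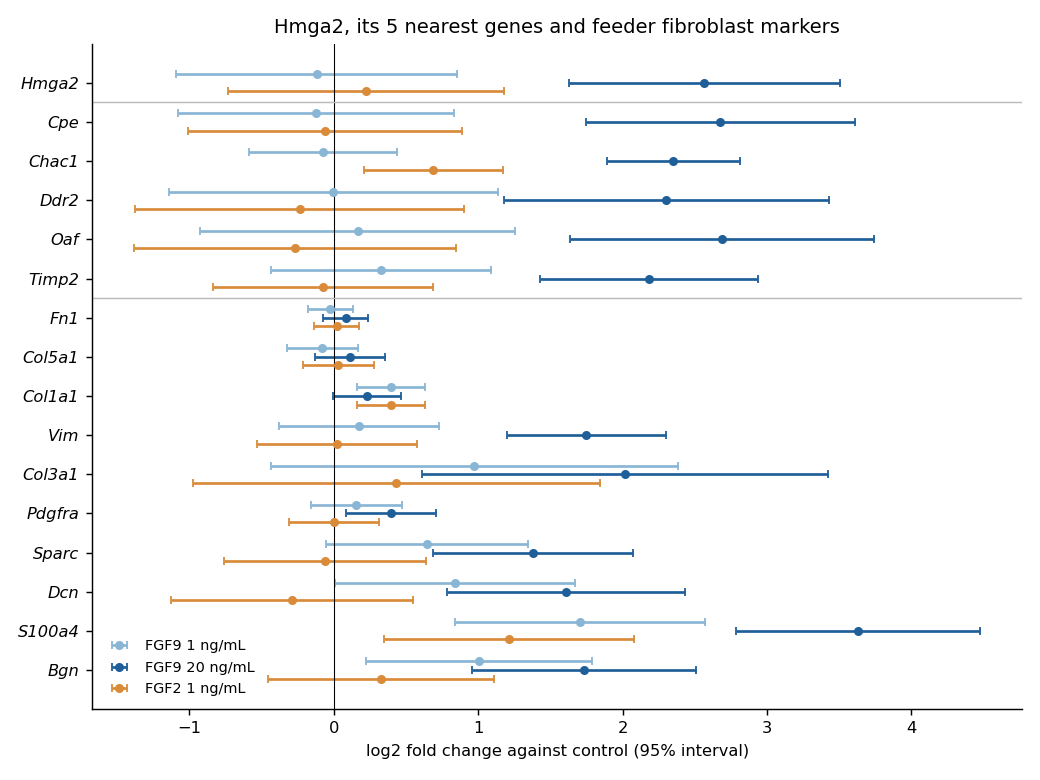
Log2 fold changes against control with 95% intervals for Hmga2 (top), the 5 genes nearest to it (middle) and fibroblast markers, the 6 most abundant and the 4 others that were called (bottom). With high-dose FGF9 (dark blue) Hmga2 stands at 2.57, Cpe at 2.68, Vim at 1.75 and Fn1 at 0.08.

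For Lin28a the direction was the opposite of that of Hmga2, and the change was small. Lin28a (ENSMUSG00000050966, chromosome 4, 134003330 to 134018841) had a derived mean of 2504 ± 87.7 in control, 2496 ± 87.4 with low-dose FGF9, 2142 ± 75.7 with high-dose FGF9 and 2558 ± 89.4 with FGF2. The high dose of FGF9 was again the group that stood apart. Compared with control its level was 0.855 (95% interval 0.776 to 0.943, unadjusted p = 0.0016), and this missed the call at an adjusted p of 0.0554. It was called at an adjusted p of 0.0475 where genes needed a mean of at least 50, and 2 of the 7 genes then passed in this comparison. Compared with FGF2, Lin28a was lower with high-dose FGF9, at 0.838 of its level (interval 0.760 to 0.923, adjusted p = 0.0373). This call held under all 6 alternative settings tried. Of these settings, 2 or 4 libraries per group could hardly move it, since the implied dispersion uses the same number. In this contrast with FGF2, which changes factor and dose together, 5 of 21 fibroblast markers were called higher, against 1.17% of all genes. The part of these markers in the Lin28a result was not tested. Compared with low-dose FGF9 its level was 0.858 (interval 0.779 to 0.946, adjusted p = 0.0724). With low-dose FGF9 or FGF2 its fold changes against control were 0.997 (interval 0.904 to 1.10) and 1.02 (interval 0.927 to 1.12). Between low-dose FGF9 and FGF2, the matched doses, the ratio was 0.976 (interval 0.886 to 1.08) and was not called.

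Lin28b, the paralogue of Lin28a, was called in none of the 6 comparisons. Lin28b (ENSMUSG00000063804, chromosome 10, 45376620 to 45486395) had derived means of 2564 ± 78.9 in control, 2593 ± 79.8 with low-dose FGF9, 2298 ± 71.3 with high-dose FGF9 and 2428 ± 75.0 with FGF2. With high-dose FGF9 its fold change was 0.896 (interval 0.823 to 0.976, unadjusted p = 0.0118, adjusted p = 0.197), and its interval overlapped that of Lin28a. Against low-dose FGF9 the high dose gave 0.886 (interval 0.814 to 0.966, adjusted p = 0.133). A value of 0.946 against FGF2 (interval 0.869 to 1.03) completed the direct contrasts with the high dose.

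Hmga1, the paralogue of Hmga2, did not pass the test in any comparison. Hmga1 (ENSMUSG00000046711, chromosome 17, 27556497 to 27563674) had derived means of 7178 ± 195 in control, 7239.8 ± 197 with low-dose FGF9, 6952 ± 189 with high-dose FGF9 and 7398 ± 201 with FGF2. The 4 groups thus lay within 1.06-fold. With high-dose FGF9 the fold change was 0.968 (interval 0.898 to 1.04), an interval far below the fold change of Hmga2. Hmga1 shares reads with Hmga1b, a near-identical copy that the table lists as protein-coding, so the split of reads between them is uncertain. Hmga1b held 5.27% of the sum of both means, and its fold changes were 0.971, 1.08 and 0.996 with low-dose FGF9, high-dose FGF9 and FGF2 (adjusted p = 1, 0.879 and 1).

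Of the Igf2bp genes, Igf2bp2 differed between the doses of FGF9. Igf2bp2 (ENSMUSG00000033581, chromosome 16, 22059009 to 22163299) had derived means of 309 ± 25.1 in control and 246 ± 20.4 with low-dose FGF9. They were 358 ± 28.8 with high-dose FGF9 and 259.6 ± 21.4 with FGF2. The control lay between the low-dose groups and the high dose of FGF9. Igf2bp2 was 1.46-fold higher with the high than with the low dose (95% interval 1.16 to 1.83, adjusted p = 0.0457). This call was near the threshold, with an adjusted p of 0.059 when genes of any mean were included and of 0.0507 with the largest dispersion. In this contrast S100a4 and Vim were the called ones of 21 fibroblast markers, where 2.57% of all genes were called. Of the 21 markers 17 had positive fold changes, and the part of the markers was not tested. Neither dose was called against control, where low-dose FGF9 gave 0.794 (interval 0.631 to 0.999, unadjusted p = 0.0494, adjusted p = 1) and the high dose gave 1.16 (interval 0.925 to 1.45, adjusted p = 0.735). Against FGF2, the high dose gave 1.38 (interval 1.10 to 1.73, adjusted p = 0.202).

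Igf2bp1 was the most abundant of its family and Igf2bp3 had the narrowest range. Igf2bp1 (ENSMUSG00000013415, chromosome 11, 95957163 to 96005940) had derived means of 14104 ± 605 in control, 14509 ± 622 with low-dose FGF9, 14375 ± 616 with high-dose FGF9 and 16133 ± 691 with FGF2. The FGF2 group was the highest, with a fold change against control of 1.14 (interval 1.02 to 1.29, unadjusted p = 0.0265, adjusted p = 0.794). Igf2bp3 (ENSMUSG00000029814, chromosome 6, 49085223 to 49214957) had means of 2310.2 ± 76.4, 2419 ± 79.7, 2244 ± 74.3 and 2183.5 ± 72.5 in control, with the low and the high dose of FGF9 and with FGF2. Its largest difference was between low-dose FGF9 and FGF2, at 1.11 (interval 1.01 to 1.21, unadjusted p = 0.0283, adjusted p = 0.576). Neither gene was called in any comparison.

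Of 21 listed genes of microRNA processing and LIN28 cofactors, none was called in any of the 6 comparisons (4 at an unadjusted p under 0.05 with high-dose FGF9), and their median log2 fold change with high-dose FGF9 was -0.03. Drosha, the nuclease that cuts primary microRNA transcripts, stood at 0.924 times control (interval 0.868 to 0.983, adjusted p = 0.204). Ago2, which loads mature microRNAs and itself has 3 seed matches, was at 0.800 (interval 0.660 to 0.969, adjusted p = 0.283). Tnrc6a, a partner of the Argonaute proteins, was at 1.21 (interval 1.08 to 1.36, adjusted p = 0.0501), and it was called where genes needed a mean of at least 50 and with centred fold changes. For Tut4 and Dis3l2, the uridylating enzyme and the nuclease that remove let-7 precursors bound by LIN28A, the log2 fold changes were -0.07 and -0.06 with high-dose FGF9. Of the let-7 genes and host transcripts, 15 were in the table, 9 were listed at 0 and 2 (Huwe1 and Wdr82) were tested, with fold changes of 1.02 and 0.948 with high-dose FGF9 that were not called.

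Most of the other textbook let-7 targets were not called with the high dose, and Irs2 was the exception. Of 29 tested, of which Dicer1 is also in the list above, 1 was called with high-dose FGF9, a share near the 2.75% of all genes called in that comparison, and the median log2 fold change was 0.03. Irs2, an insulin receptor substrate, was higher by 1.35-fold (interval 1.19 to 1.52, adjusted p = 0.000241), and it was also called with FGF2 at 1.34-fold (interval 1.18 to 1.51, adjusted p = 0.00555). Against low-dose FGF9, the high dose gave higher Irs2 (1.37-fold, adjusted p = 0.000126) and Igf1r, the IGF1 receptor (1.15-fold, interval 1.08 to 1.24, adjusted p = 0.00529). Both were lower with low-dose FGF9 than with FGF2, at 0.737 and 0.850 (adjusted p = 0.00131 and 0.00397). Cdk6, a kinase of the G1 phase, had a fold change of 0.661 with FGF2 (interval 0.534 to 0.818, adjusted p = 0.0708). Plagl2, a zinc finger factor, was at 0.894 times control with high-dose FGF9 (interval 0.825 to 0.970, adjusted p = 0.143).

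Grouped by seed matches in the 3′ UTR, all classes of genes had medians near 0 with high-dose FGF9. The median log2 fold change was -0.0023 over 12853 genes without a match, -0.01 over 1199 genes with 1 match, -0.03 over 144 genes with 2 and -0.06 over 24 genes with 3 or more. The share called was 3.07% without a match and 3.58% over all 1367 genes with 1 or more. Of the 24 genes with 3 or more matches, Hmga2 was the 1 called. Nr6a1, a nuclear receptor of germ cells with 8 matches, had a log2 fold change of -0.14 (SE 0.12). Trim71, a let-7 target that acts in stem cells, had 4 matches and a log2 fold change of 0.06 (SE 0.05). These medians are descriptions with no test, since genes are not independent replicates and 3′ UTR length rises with the number of matches, from a median of 930.0 nucleotides without a match to 4460 with 3 or more.

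**Figure D5:**
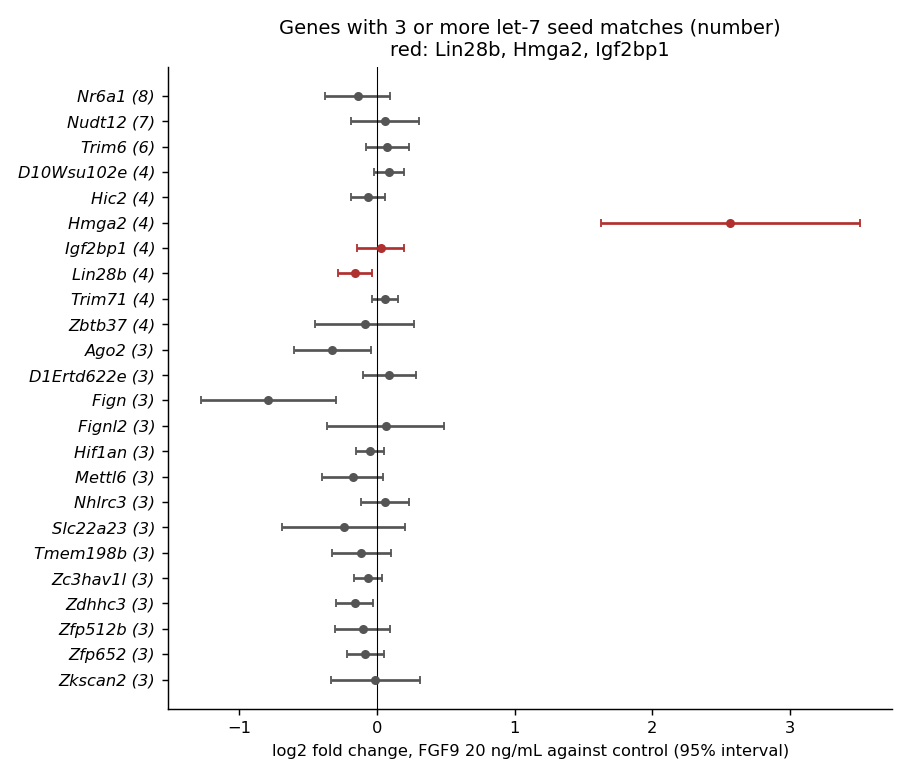
Log2 fold changes with high-dose FGF9 against control (95% intervals) for the 24 genes with 3 or more let-7 seed matches, with the number of matches in brackets and the genes studied in red. Hmga2 stands at 2.57, and Lin28b and Igf2bp1, with as many matches, at -0.16 and 0.03.

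Among the textbook client RNAs of the IGF2BP proteins, 2 of 12 tested rose with high-dose FGF9 and none fell, where 2.75% of all genes were called (313 higher and 175 lower), with a median log2 fold change of 0.01. Some of these clients are also among the let-7 targets above. Cd44, a hyaluronan receptor of the cell surface, was 3.66-fold higher (interval 2.55 to 5.25, adjusted p = 1.49e-09) and was also called in both direct contrasts with the high dose. H19, an imprinted noncoding RNA, was 1.29-fold higher (interval 1.16 to 1.43, adjusted p = 0.000322). Igf2, the client that gave the family its name and the imprinted neighbour of H19, stood at 1.02 times control (interval 0.900 to 1.16, adjusted p = 0.964). Actb, encoding cytoskeletal actin, was at 0.898 (interval 0.813 to 0.991, adjusted p = 0.344). The fibroblast markers given above moved in the comparison in which Cd44 and H19 rose, and their part was not tested.

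Neither the m6A genes nor the other high mobility group genes held a call by the authors' DESeq2 test or the rebuilt contrasts. Of 15 writers, erasers and other readers of m6A none was called in 6 comparisons (at most 1 at an unadjusted p under 0.05 in each). Ythdf2, a reader that destabilises mRNA, had a fold change of 0.910 with high-dose FGF9 against control (interval 0.839 to 0.988, adjusted p = 0.295) and of 0.883 against low-dose FGF9 (interval 0.813 to 0.959, adjusted p = 0.0906). Hnrnpa2b1, a nuclear RNA-binding protein, was at 1.10 in low-dose FGF9 against FGF2 (interval 1.03 to 1.18, adjusted p = 0.232). The m6A eraser Alkbh5 stood at 0.900 times control (interval 0.801 to 1.01). Of 11 other high mobility group genes none was called either (at most 1 at an unadjusted p under 0.05). Hmgb2, a DNA-bending protein of dividing and germ cells, had fold changes of 1.33 with low-dose FGF9 (interval 1.05 to 1.70, adjusted p = 0.901) and 1.23 with the high dose (interval 0.965 to 1.56). Hmgb1, its ubiquitous relative, was at 0.969 times control with high-dose FGF9 (interval 0.902 to 1.04).

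For Lin28a and Igf2bp2, the genes of nearest pattern were picked by these same fold changes, so their likeness follows from the selection. None of them was called with high-dose FGF9 (adjusted p between 0.345 and 0.941). Nearest to Lin28a were Snrpn, Taf2, Atn1, Ddx23 and Ehd3, with log2 fold changes between -0.21 and -0.23 with high-dose FGF9. Nearest to Igf2bp2 were Khk, Atg9b, Coro1a, Mfsd3 and Adamtsl4, with log2 fold changes between -0.30 and -0.40 with low-dose FGF9 and between 0.13 and 0.28 with the high dose.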

How the data were processed

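The labels list 16 samples of cultured THY-1+ germ cells in 4 treatments. The authors made stranded polyA libraries, used STAR and Salmon with GRCm38 and compared treatments with DESeq2 (versions, model and filters not given in the sources used here). Per gene, the authors' deposited table has a signal (the normalized count averaged over the libraries). The same deposited table of the authors has, against control, log2 fold changes with standard errors, Wald statistics (a score) and p-values. With 0 columns of values per library, the depth of single libraries is unknown. The authors' deposited p-values were adjusted again (Benjamini-Hochberg, two-sided) over the 17755 genes averaging 10 or more normalized counts. With 3 libraries per group, derived means and implied dispersions gave the direct contrasts (17726 genes, derived means of 1 or more), with normal 95% intervals, after a check on simulated data. That check used the same variance formula and 3 libraries, so it could not test the number of libraries or the authors' model. As no source used here says that the cultures came from separate animals, p-values measure the spread between cultures, which may be technical.

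The 7 genes and all lists were chosen with earlier results of these data known. Named are the 7 genes, from each list the 4 genes of smallest p, the 6 most abundant markers of each marker list with any others called, and the 5 genes nearest (Euclidean distance of 3 log2 fold changes, mean of at least 50) to each of the 7 that was called. Tut4, Dis3l2, Trim71 and Nr6a1, and the fibroblast sum without its 3 most abundant markers, were added after their values were seen. Seed matches were read from GENCODE M21, 1 protein-coding transcript per gene (principal isoform, then longest), and let-7 sequences from RefSeq (GRCm38.p6). Python 3.11.15, NumPy 2.4.6, SciPy 1.17.1 and pandas 2.3.3 were used. Alternatives were other filters, centred fold changes, the authors' adjusted p-values, 2 or 4 libraries per group and the largest dispersion.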

Additional observations from a re-analysis of the deposited data

How the results depend on the processing

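Over 210 recomputed values of the 7 genes, 207 kept their side of the threshold. Only centring alters a fold change, and no sign changed under it. The other alternatives leave the fold changes as they are, so their signs could not change. With genes of any mean included, 1 of the 7 genes (Hmga2) was called in high-dose against low-dose FGF9 in place of 2, and likewise 1 with the largest dispersion, since Igf2bp2 lost its call (adjusted p = 0.059 and 0.0507). With a mean of at least 50, 2 were called with high-dose FGF9 against control, as Lin28a was added, and 1 of the 21 genes of microRNA processing (Tnrc6a) was called, as it was with centred fold changes. The other 27 of 30 counts did not move. In the direct contrasts, 2 or 4 libraries per group could hardly move them, since the implied dispersion uses the same number. Hmga2 stayed called with high-dose FGF9 under every alternative, with adjusted p between 1.65e-05 and 4.18e-05 against control. The adjusted p of Lin28a there ran from 0.0475 to 0.106. Over all genes, the 14 calls with low-dose FGF9 became 34 with no filter and 35 with the authors' adjusted p-values, and the 26 with FGF2 became 43 with the latter. Of 15 germ cell markers, 1 in place of 2 was called in high-dose against low-dose FGF9 with no filter.

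No paired analysis was possible because the table holds 0 columns of values per library, and for the same reason leaving out each replicate in turn was not run. The number of libraries is an assumption that follows the paper's n = 3. The direct contrasts are reconstructions that share groups, and the depth behind single libraries is unknown. Hmga2 at 53.3 normalized counts in control is the least precise of the 7.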
